A study of Mus musculus with 8 samples.

Results

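The genes named Zfp and a number encode zinc finger proteins of the mouse. Their transcripts were measured in testis RNA on Affymetrix arrays, which read each transcript through a probe set, several short probes scored as 1 value. All probe sets whose single gene symbol in the array annotation is Zfp followed by a number, with or without a letter after it, were taken, which gave 112 of the 12422 probe sets on the array, for 87 genes. The rule itself uses names and no measured value. The symbols of all 112 are unchanged in the RefSeq gene table of assembly GRCm38.p6.

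The 8 arrays fall into 4 groups of 2, named by the word that follows Mus musculus in the sample titles: castaneus, domesticus, musculus and ssp. All are total RNA from testis, and the study compares expression in this tissue among house mice. The labels call the arrays of a group technical replicates, so p-values measure the spread between replicate arrays and not between animals. The age and strain of the mice, how many animals were pooled, and what ssp stands for are not stated in the labels. Testis RNA is a mixture, and fewer cells of a type cannot be told apart from less RNA per cell. Probe sequences were not available. Whether sequence differences between the groups under the probes changed a signal was therefore not tested.

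Most zinc finger proteins with such names carry rows of the C2H2 finger. In it a zinc ion held by cysteines and histidines folds a short stretch of protein that can bind DNA. Many also carry a KRAB domain, which recruits the co-repressor Trim28 and with it the histone methyltransferase Setdb1, and these KRAB proteins silence transposable elements and some genes. The name was given for a sequence motif and not for a function, so the family also holds RNA-binding proteins, ubiquitin ligases and a cytoskeletal protein. The testis expresses many of them in meiotic and haploid germ cells.

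Of the 112 probe sets, 86, for 71 genes, were bright enough to be tested, which is 76.8% against 71.4% of the whole array. Testing required an intensity at or above the array's 40th percentile, 94.7 to 119, on at least 2 of the 8 arrays. All 8 arrays reached it for 32 probe sets. In 4 it was reached through 1 group alone, so these probe sets were high in that group by construction: Zfp90 in castaneus, Zfp93 in domesticus, Zfp28 in musculus and Zfp101 in ssp. The other 26 probe sets were left untested. Their highest single reading was 343, for Zfp57, and 22 of the 26 had at least 1 array at or under the floor of 18.7, the 10th percentile of all intensities, to which lower readings were raised. Among the tested probe sets 11 had such an array. For 16 of the 87 genes no probe set was tested, among them Zfp2, Zfp14, Zfp30, Zfp40, Zfp57, Zfp59, Zfp60 and Zfp92.

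The array signals of 3 Zfp genes differed among the 4 groups: Zfp62, Zfp185 and Zfp101. That is 3.49% of the 86 tested probe sets, against 1.76% of all 8874 probe sets tested on the array by the same rule. Zfp101 is among the 4 that passed the filter through 1 group alone, and without such probe sets 2 of 82 (2.44%) were called, against 1.57% of the array. The rule asked for an adjusted p under 0.05 in limma's moderated F test and a span of group means of at least 2-fold. At an unadjusted p under 0.05 there were 11 Zfp probe sets, 12.8% of those tested, against 15.9% of the array. The 3 probe sets carry no letter suffix in their identifiers, while 17 of the 86 tested probe sets do. Some of these letters, but not all, mark probes shared between related transcripts.

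Zfp62 encodes a protein made almost wholly of C2H2 fingers. Its intensity was 22.3 and 4 on the castaneus arrays, 472 and 451 on the domesticus arrays, 288 and 227 on the musculus arrays, and 327 and 401 on the ssp arrays. Both castaneus arrays thus lay far under the other 6, and 1 of them was under the floor. Group means were 20.4, 462, 256 and 362 in that order, with SDs of 0.18, 0.05, 0.24 and 0.21 log2 (n = 2 arrays each). Castaneus was 22.6-fold below domesticus, 12.5-fold below musculus and 17.7-fold below ssp (limma, adjusted p = 0.00563, 0.00701 and 0.00826, standard error 0.26 log2, and 0.00633 over the 4 groups). No other Zfp probe set had 1 group differ one way from all the rest (1.16% against 0.563% of all tested). Among domesticus, musculus and ssp it differed by 1.27 to 1.8-fold, and no such pair passed. Leaving out either castaneus array ended the call over the 4 groups (adjusted p = 0.0614 without replicate 1 and 0.0616 without replicate 2), although the difference from domesticus stayed at 4.61 and 4.37 log2. In each of the 8 fits without 1 array, at least 1 of the 3 pair calls of castaneus was lost. The folds, the castaneus SD, the standard error and the p-values take the castaneus reading of 4 at the floor of 18.7. The castaneus replicates therefore look closer in these values than their readings of 22.3 and 4 were. With the floor at the 5th percentile the adjusted p over the 4 groups was 0.0174 by limma.

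Zfp185, on the X chromosome, encodes a LIM-domain protein that binds actin filaments and is no DNA-binding factor. It read 17.6 and 17.8 on the musculus arrays, both under the floor. The castaneus arrays gave 149 and 196, the domesticus arrays 226 and 215 and the ssp arrays 50.8 and 117. The musculus arrays were below the other 6, and the ssp arrays lay between them and the rest. Against the floor, Zfp185 was at least 9.14-fold higher in castaneus and at least 11.8-fold higher in domesticus than in musculus (limma, adjusted p = 0.0392 and 0.0264, standard error 0.42 log2). The difference between ssp and musculus, at least 4.12-fold, did not pass (adjusted p = 0.107). The call over the 4 groups (adjusted p = 0.0371) was lost with the floor at the 20th percentile (0.0669), without the filter (0.0793) and in 6 of the 8 fits that left out 1 array (without either castaneus, domesticus or musculus array, up to 0.154).

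Zfp101 encodes a C2H2 protein, and its gene lies on chromosome 17. It read 152 and 198 on the ssp arrays, 79.5 and 59.1 on the castaneus arrays, 44.9 and 52.8 on the domesticus arrays, and 23.2 and 11.7 on the musculus arrays, with 1 of the last under the floor. The groups followed each other without overlap, from ssp down to castaneus, domesticus and musculus. The difference between ssp and musculus, 8.34-fold, was the 1 pair that passed (log2 difference of musculus minus ssp -3.06, standard error 0.29, adjusted p = 0.0164 by limma). The differences of ssp from domesticus, 3.57-fold, and of castaneus from musculus, 3.29-fold, did not pass (adjusted p = 0.0626 and 0.0628). Zfp101 entered the test through the ssp arrays alone, so it could not be tested with either of them left out, and the call over the 4 groups (0.0321) was lost in each of the other 6 fits without 1 array (0.0808 to 0.118). It was also lost without the filter (0.0572) and with a prior variance that was both trended on intensity and robust (0.173). Its fold, standard error and p-values take the musculus array under the floor at the floor.

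**Figure D1:**
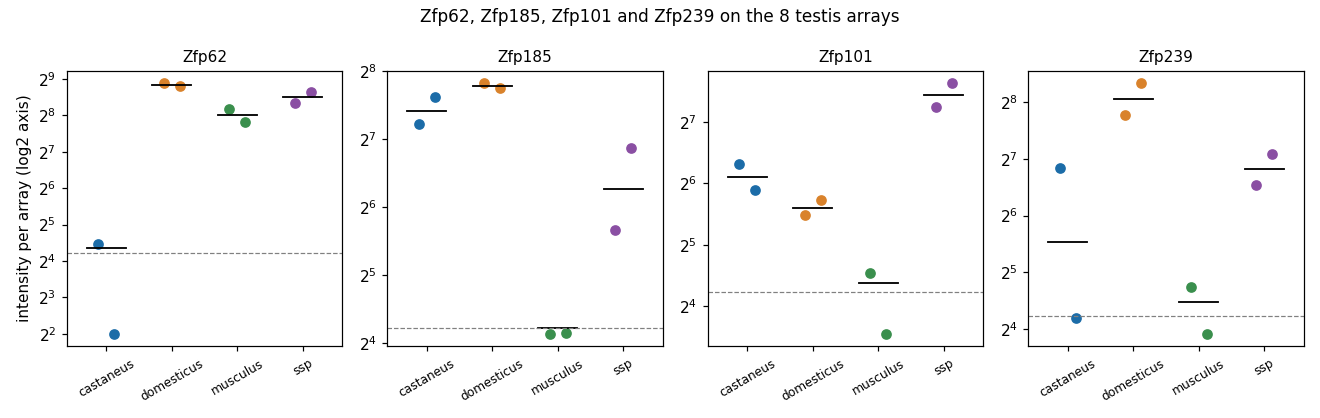
Intensity of Zfp62, Zfp185, Zfp101 and Zfp239 on each of the 8 arrays, on log2 axes with a scale of their own. Points are single arrays, bars the geometric mean of the 2 arrays of a group after flooring, and the dashed line the floor of 18.7. Zfp62 is low on both castaneus arrays and Zfp185 on both musculus arrays, Zfp101 steps down from ssp to musculus, and the castaneus arrays of Zfp239 lie far apart.

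The windows upstream of these 3 genes are shown because they are the Zfp genes whose signals differed. Each line gives the 250 bases before an annotated start, from RefSeq, 5′ to 3′ on the gene's strand. Capitals mark matches on either strand to any of 4 motifs. The GC box was searched as GGGCGG and the CCAAT box by its own letters. The core that YY1 binds was searched as AAGATGGC and the TATA box as TATAAA.

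Zfp62, start 1 (GRCm38.p6 chr11:49203042-49203291, + strand): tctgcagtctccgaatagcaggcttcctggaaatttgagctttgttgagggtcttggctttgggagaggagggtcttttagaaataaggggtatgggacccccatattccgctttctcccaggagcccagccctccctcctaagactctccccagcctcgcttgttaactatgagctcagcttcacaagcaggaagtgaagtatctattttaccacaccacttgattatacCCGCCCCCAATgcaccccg

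Zfp62, start 2 (GRCm38.p6 chr11:49203481-49203730, + strand): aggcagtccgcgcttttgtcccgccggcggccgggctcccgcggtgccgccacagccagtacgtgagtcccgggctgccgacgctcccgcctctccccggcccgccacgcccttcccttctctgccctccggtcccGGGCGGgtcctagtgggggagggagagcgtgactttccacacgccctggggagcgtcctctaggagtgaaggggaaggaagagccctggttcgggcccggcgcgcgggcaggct

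Zfp185 (GRCm38.p6 chrX:72987089-72987338, + strand): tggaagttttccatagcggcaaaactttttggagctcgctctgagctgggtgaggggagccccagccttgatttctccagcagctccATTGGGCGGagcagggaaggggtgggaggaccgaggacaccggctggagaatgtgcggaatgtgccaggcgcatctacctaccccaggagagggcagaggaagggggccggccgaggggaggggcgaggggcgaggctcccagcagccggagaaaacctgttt

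Zfp101 (GRCm38.p6 chr17:33394638-33394887, - strand): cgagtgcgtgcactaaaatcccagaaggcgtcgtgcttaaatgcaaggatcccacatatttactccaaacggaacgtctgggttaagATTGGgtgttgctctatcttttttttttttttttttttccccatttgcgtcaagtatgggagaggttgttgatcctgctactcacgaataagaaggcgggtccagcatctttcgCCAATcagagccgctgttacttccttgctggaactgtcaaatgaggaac

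A match of letters in these windows is a description and not a site of binding. The first Zfp62 window holds a GC box 19 bases and a CCAAT box 13 bases before the start, next to each other, with 5 CpG dinucleotides. The second holds 1 GC box and 28 CpG, with 73.6% G and C. In the Zfp185 window a GC box at 160 bases overlaps a CCAAT box at 163, and the Zfp101 window holds CCAAT boxes at 49 and 163 bases. No window holds the AAGATGGC or TATAAA letters. RefSeq windows were matched for 72 of the 87 genes, 93 windows in all. Of these, 50.5% hold the GC box and 43% the CCAAT box, against 42.6% and 35.4% of the 21255 windows of protein-coding genes. AAGATGGC is in 1.08% against 1.49%, and TATAAA in 7.53% against 11.6%. The Zfp windows have a median of 14 CpG against 10, and a ratio of observed to expected CpG of 0.708 against 0.53. By these medians the matched Zfp windows were richer in CpG than those of protein-coding genes, a difference that was not tested. Genes with several starts count more than once.

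By pairs of groups, the 3 genes made up all the Zfp calls. Castaneus and domesticus differed at 1 Zfp probe set (1.16%, against 0.676% of all tested), Zfp62. Castaneus and musculus differed at Zfp62 and Zfp185 (2.33% against 0.947%). Zfp62 was the call between castaneus and ssp (1.16% against 0.349%). Zfp185 was that between domesticus and musculus (1.16% against 0.744%), and Zfp101 that between musculus and ssp (1.16% against 0.98%). No Zfp probe set passed limma's threshold between domesticus and ssp, where 0.687% of all tested did. There, 9 of 86 had an unadjusted p under 0.05, or 10.5% against 12.4% of the array. The counts are of 0 to 2 genes per pair.

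The remaining 83 tested probe sets did not pass, and their group means spanned 1.17 to 11.9-fold (adjusted p from 0.141 to 0.993). The median span of the 86 was 0.96 log2, against 0.81 over all tested probe sets. In 41 of the 86 the span was at least 2-fold (47.7% against 38.7% of the array), in 9 at least 4-fold (10.5% against 9.11%), and in 15 under 1.5-fold. Replicate arrays of Zfp probe sets also differed more than those of the array as a whole. The median absolute difference between the 2 arrays of a group ran from 0.42 log2 (domesticus) and 0.43 (musculus) to 0.53 (castaneus) and 0.61 (ssp). Over all tested probe sets it was 0.37, 0.4, 0.38 and 0.46 in the same order. The Zfp probe sets were dimmer, with a median signal of 165 against 297. The part of this dimness in their wider spans was not tested.

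**Figure D2:**
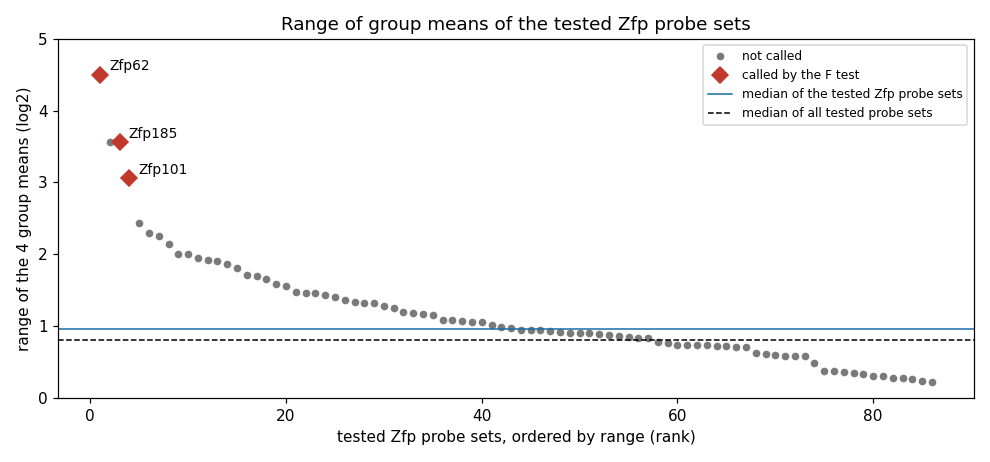
Span between the highest and lowest of the 4 group means (log2) for the 86 tested Zfp probe sets, in descending order. Red diamonds are the 3 probe sets called by the F test, and lines mark the medians of the tested Zfp probe sets (0.96) and of all tested probe sets (0.81). Zfp239, the grey point among the leaders, spans 3.57 log2 but was not called.

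Among probe sets with spans of at least 4-fold, 6 were not called, and in 5 of these the replicate arrays differed by over 1 log2 (root mean square over the 4 groups). The widest was Zfp239, or MOK2, whose fingers bind both DNA and RNA. It read 218 and 322 in domesticus, 26.7 and 15.1 in musculus, 93.5 and 137 in ssp, and 115 and 18.4 in castaneus. One castaneus array lay between the ssp readings and the other between those of musculus, and the 11.9-fold span between domesticus and musculus did not pass (limma, adjusted p = 0.201). Zfp982, by a probe set that can match related transcripts, read 292 and 98 in musculus and 52.1 and 16.7 in castaneus (adjusted p = 0.324).

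Zfp90, a KRAB repressor, gave close castaneus readings of 122 and 121, above the other 6 arrays, and musculus readings of 23.3 and 26.6, below them. The domesticus arrays gave 28.9 and 71.2 and the ssp arrays 90.8 and 54.2, and the 4.88-fold span did not pass (adjusted p = 0.181). One probe set of Zfp93 read 155 and 127 in domesticus, and 15.4 to 70.2 elsewhere (adjusted p = 0.28). Zfp90 passed the filter through castaneus alone and this Zfp93 probe set through domesticus alone, so each was high there by construction. One probe set of Zfp1 read 362 and 330 in castaneus but 28.6 and 212 in domesticus (adjusted p = 0.532). Zfp316 spanned 3.99-fold from castaneus to ssp, Zfp51 3.88-fold from musculus to domesticus and Zfp865 3.79-fold from domesticus to castaneus, with adjusted p of 0.393, 0.425 and 0.62.

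The smallest spans were those of Zfp622, Zfp688 and Zfp598. Zfp622, a factor of large ribosomal subunit assembly, read 285 to 416 on the 8 arrays, a 1.17-fold span of group means. Zfp688 read 688 to 922, and Zfp598, the ubiquitin ligase that marks collided ribosomes, 1335 to 1947. In none of the 3 did a group stand clear of all the others (limma, adjusted p = 0.918, 0.896 and 0.879).

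**Figure D3:**
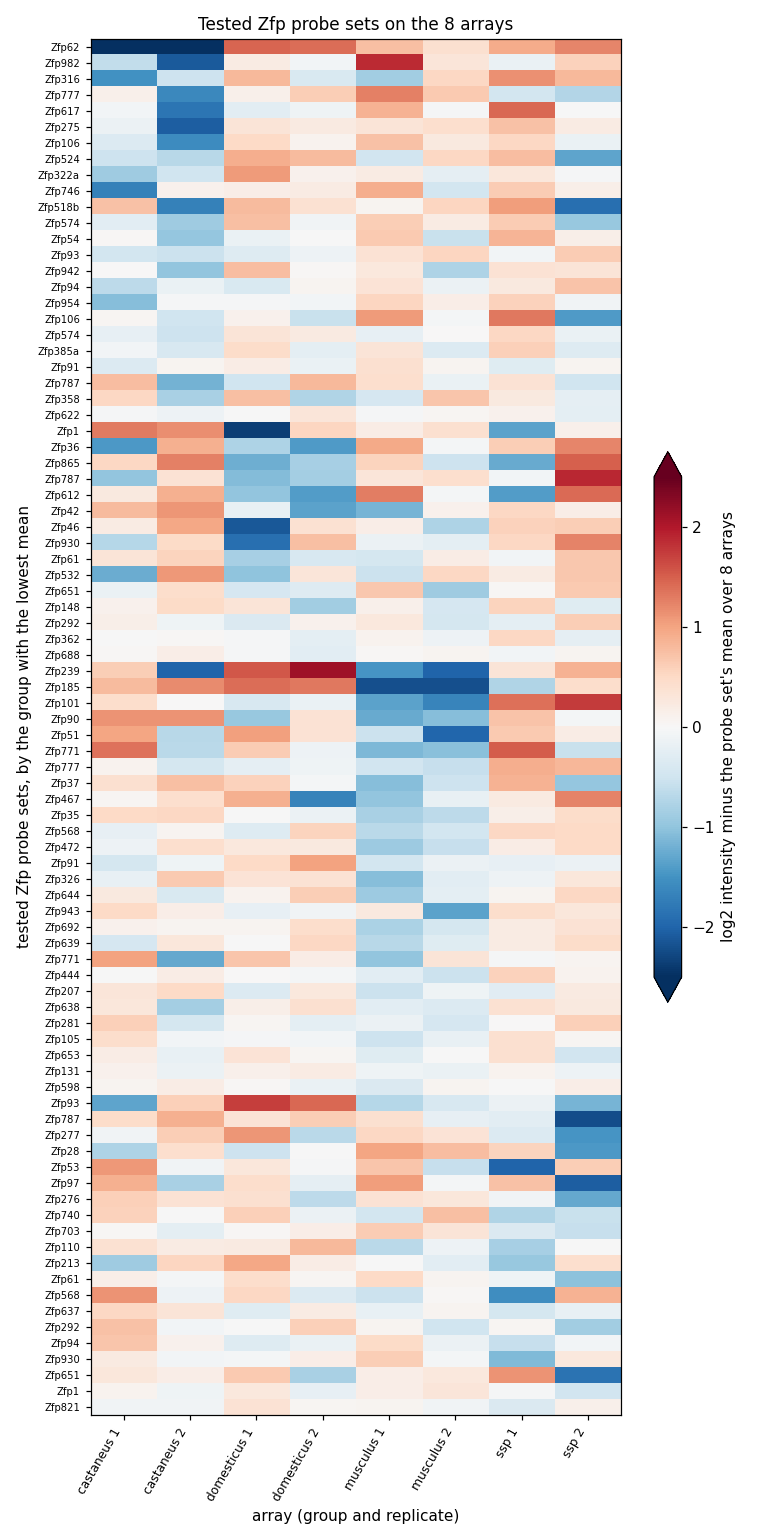
Log2 intensity of the 86 tested Zfp probe sets on the 8 arrays, each minus its own mean over the arrays, grouped by which group has the lowest mean. Red is above and blue below that mean, and colours saturate at 2.5 log2 in either direction. Replicate columns of a group often differ within a row, and Zfp62, Zfp185 and Zfp101 are among the rows whose blue cells fall on both arrays of 1 group.

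Musculus most often had the lowest mean, among Zfp probe sets as on the array as a whole. It was lowest in 27 of the 86 probe sets (31.4% against 26.5% of all tested), castaneus in 24 (27.9% against 25.2%), ssp in 20 (23.3% against 23.1%) and domesticus in 15 (17.4% against 25.2%). The highest mean was in ssp for 28 (32.6% against 28.8%), domesticus for 21 (24.4% against 21.6%), castaneus for 20 (23.3% against 24%) and musculus for 17 (19.8% against 25.6%). Both arrays of the highest group lay above both of the lowest in 65 (75.6% against 74.9%). The shares of the Zfp probe sets and of the array were set side by side only, and their differences were not tested.

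Some probe sets had both arrays of their lowest group below the other 6, 22 of 86 in all (25.6% against 22.7%). Both musculus arrays read below the other 6 in 12 of the 86 probe sets (14% against 6.67% of all tested). With the arrays centred on their medians the count was 8 (9.3% against 5.38%), and with quantile normalization 9 (10.5% against 6.54%). With the filter at the 60th percentile it was 3 of 37, a share near that of the array (8.11% against 7.53%). The same held for castaneus in 6 (6.98% against 5.43%), for ssp in 4 (4.65% against 5.17%) and for domesticus in 0 (0% against 5.47%). Besides Zfp185, Zfp101, Zfp90 and Zfp35, the 12 were probe sets of Zfp771, Zfp777, Zfp568, Zfp472, Zfp326, Zfp692, Zfp444 and Zfp105, and apart from Zfp185 and Zfp101 none was called. Of the 11 with an unadjusted p under 0.05, musculus had the lowest mean in 9 (81.8%), against 29.5% of the 1415 such probe sets on the array, a difference that was not tested. Zfp472, for example, read 93.8 and 118 in musculus against 161 to 247 elsewhere (adjusted p = 0.254). The 11 include Zfp101, Zfp90 and Zfp93, which passed the filter through 1 group alone, and the 9 include Zfp101 and Zfp90. The share was not taken without them. Zfp777 and Zfp91 are also among the 9, and each has another tested probe set that was highest in musculus.

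Both arrays of the highest group were above the other 6 in 19 probe sets (22.1% against 24.7%). These were 6 for castaneus (against 5.74% of the array), 7 for domesticus (6.13%), 3 for musculus (6.37%) and 3 for ssp (6.42%). Zfp90, Zfp93, Zfp28 and Zfp101, which passed the filter through 1 group alone, are among the 19. The musculus RNA also stood apart in markers of other cells. The summed intensity of 11 measured of 12 Leydig cell markers was 24350 and 27800 on its arrays and 9040 to 11860 on the other 6. Cyp17a1 was the largest part of it in musculus, at 8656 and 9709. Of these 11 markers, 8 had their highest mean in musculus, 2 in ssp and 1 in domesticus. The summed intensity of 2 measured of 4 erythroid markers was 13970 and 17680 against 1558 to 5394. Most of this erythroid sum was Hba-a1, at 13328 and 16971 in musculus, and neither erythroid marker was called. The 13 measured of 15 spermatid markers summed to 258100 and 310500 in musculus against 280200 to 400300, and overlapped. The 9 measured of 15 spermatocyte markers gave 47980 and 49450 against 45450 to 63890. None of these lists had a measured marker at the floor on all 8 arrays, and their part in the Zfp values was not tested.

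Of the other lists, 8 of 11 spermatogonial markers summed to 4736 to 10590 over the 8 arrays, 11 of 13 Sertoli cell markers to 8682 to 11660, and 9 of 10 leukocyte markers to 1291 to 2441. The spermatogonial sum was higher on replicate 1 in every group. It was 8307 against 4736 in castaneus, 9193 against 6782 in domesticus, 10360 against 6778 in musculus, and 10590 against 6573 in ssp. Dazl and Ddx4 made up most of each replicate 1 sum. Dazl, Ddx4, Dmrt1 and Id4 were higher on replicate 1 in every group. Stra8, Kit, Uchl1 and Gfra1 were higher on replicate 2 in some groups. The 8 striated muscle markers summed to 468 and 681 in domesticus and 800 to 1429 elsewhere, but single markers took different patterns. Tnnc1 read 340 to 579 in castaneus and ssp and 7 to 20.7 in domesticus and musculus. Myh7 was highest in musculus, at 710 and 878, and Atp2a1 in ssp, at 362 and 313. Among tested markers, limma's F test called 1 spermatocyte gene, 2 Leydig cell genes and 3 muscle genes. It called 0 spermatogonial, spermatid, Sertoli cell, leukocyte and erythroid genes. Another Leydig cell gene, Hsd3b1, was called in 2 pairs of groups but not by the F test (adjusted p = 0.0548). Over all tested probe sets the share called was 1.76%.

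Of 11 zinc finger genes listed for a reported role in germ cells or testis, 5 are on the array under a Zfp name. Of these 3 were tested and 0 were called, against 1.76% of all tested. Zfp35, a finger protein transcribed in meiotic spermatocytes, read 1075 and 1098 in castaneus, 755 and 694 in domesticus, 433 and 482 in musculus, and 845 and 1047 in ssp. The musculus arrays were lowest and the castaneus arrays highest, and only the neighbours castaneus and ssp came close. The replicates agreed to within a root mean square of 0.18 log2. The 2.38-fold span did not pass (limma, adjusted p = 0.141), although Zfp35 was called with the trended and robust prior variance (0.0359), and in a pair of groups with the filter at the 60th percentile.

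Zfp37, a KRAB protein gene of round spermatids, read 133 and 168 in castaneus, 150 and 96.6 in domesticus, 48 and 70.4 in musculus, and 184 and 51.7 in ssp. The ssp arrays held the highest reading and one of the lowest, and the groups overlapped (adjusted p = 0.582). Zfp42, or Rex1, a pluripotency marker also found in spermatocytes, read 344 and 428 in castaneus against 78.1 to 283 on the other 6 arrays (adjusted p = 0.338). Castaneus lay above the rest without overlap, by 1.21-fold at the nearest arrays.

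Zfp57, which keeps methylation at imprinted genes, read 104 and 343 on the domesticus arrays and 23.2 to 47.6 on the other 6. Domesticus lay above all others, by a 5.69-fold span of group means, but 1 array alone reached the filter. Tested without the filter, Zfp57 did not pass (limma, unadjusted p = 0.0226, adjusted p = 0.276). Zfp59, first found in male germ cells, read 10.2 to 31.6 and was at or under the floor on 5 of the 8 arrays.

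**Figure D4:**
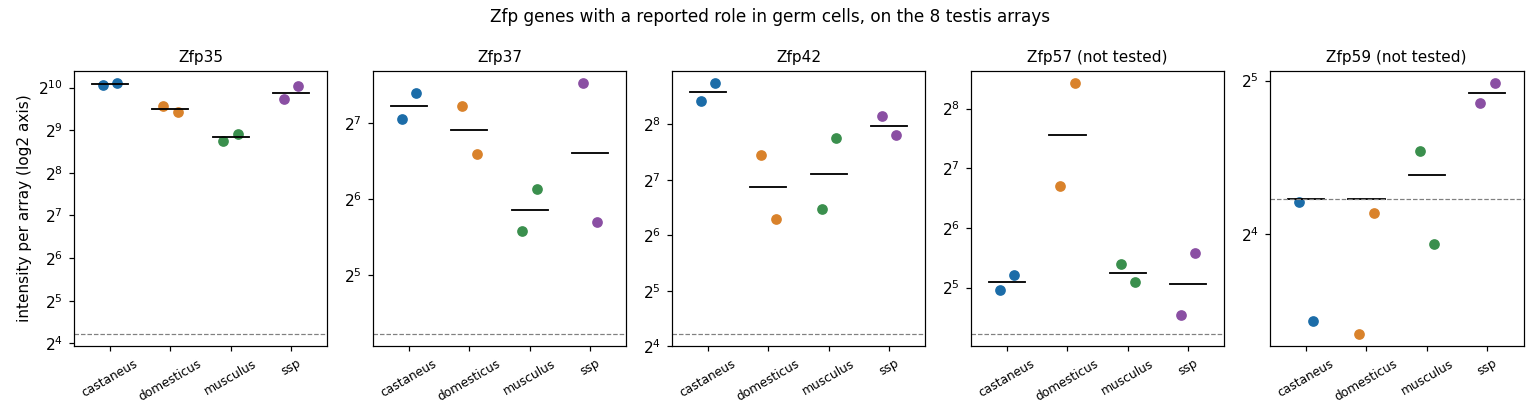
Intensity of Zfp35, Zfp37, Zfp42, Zfp57 and Zfp59 on each of the 8 arrays, on log2 axes with a scale of their own. Points are single arrays, bars group geometric means after flooring, and the dashed line the floor of 18.7. Zfp35 is lowest on the 2 musculus arrays, Zfp57 highest on the 2 domesticus arrays, and Zfp59 stays at or near the floor.

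Proteins of this name that act on RNA, ribosomes, ubiquitin or the spindle were grouped after their values were seen. The 9 genes had 11 tested probe sets with a median span of 0.72 log2, and 0 were called (lowest adjusted p = 0.244), against 1.76% of all tested. Zfp36, or tristetraprolin, destroys mRNAs with AU-rich elements. It read 41 and 204 in castaneus, 65.3 and 41.7 in domesticus, 213 and 107 in musculus, and 169 and 259 in ssp. The castaneus arrays held both the lowest reading and one of the highest, and the 4.01-fold span did not pass (limma, adjusted p = 0.485). Zfp36 belongs to a decay pathway of which 12 of 16 listed genes were measured, all were tested and 0 were called, with a median span of 0.61 log2. Its relatives Zfp36l1 and Zfp36l2 spanned 0.64 and 0.39 log2 (adjusted p = 0.446 and 0.911).

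Zfp91, a ubiquitin ligase of noncanonical NF-kappaB signalling, read 3257 and 4608 in domesticus by 1 probe set and 1681 to 2125 on the other 6 arrays. The domesticus arrays stood above the rest without overlap, by 2.07-fold over musculus (adjusted p = 0.244). Another Zfp91 probe set read 785 to 1312 and ranked musculus highest. Zfp207, which binds spindle microtubules, spanned 1.65-fold, and Zfp385a, an RNA-binding protein of the p53 pathway, 1.29-fold (adjusted p = 0.619 and 0.927).

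A second group, of pluripotency, imprinting and development, was drawn in the same way from 7 genes. Its 6 tested probe sets had a median span of 1.02 log2, and 0 were called (lowest adjusted p = 0.315), against 1.76% of all tested. Beside Zfp42 it holds Zfp281, a partner of the pluripotency network, which spanned 1.5-fold. Zfp568, a KRAB repressor of a placental Igf2 promoter, spanned 2.12-fold by 1 probe set, with 218 and 215 in ssp and 94.4 and 110 in musculus (adjusted p = 0.397). Zfp703 read 412 and 332 in musculus, above the other 6 arrays, and 208 and 179 in ssp, below them (adjusted p = 0.315).

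Probe sets of the same gene seldom ranked the groups alike. Of 21 genes with more than 1 probe set, 14 had at least 2 that were tested. All tested probe sets shared the highest group in 1 of these 14 and the lowest group in 3. The 1 gene that shared both was Zfp106, an RNA-binding protein of muscle and nerve, highest in musculus and lowest in castaneus. Its probe sets spanned 1.46 and 0.73 log2 (adjusted p = 0.377 and 0.923). Zfp574 and Zfp771 shared the lowest group alone, castaneus and musculus in turn.

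The 2 Zfp777 probe sets differed most plainly. One read 224 and 213 in ssp, above the other 6 arrays at 80.3 to 126 (unadjusted p = 0.00795, adjusted p = 0.143). The other read 69.5 and 57.7 in ssp and was highest in musculus, at 229 and 152. The Zfp787 probe sets were highest in castaneus, ssp and domesticus in turn, with spans of 1.9, 1.87 and 0.36 log2. The Zfp93 probe set that was high in domesticus had a partner highest in musculus, at 212 and 242 against 115 to 258. The groups of both Zfp1 probe sets also differed in order, and the second spanned 0.48 log2.

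Zfp292, Zfp568, Zfp61, Zfp651, Zfp91, Zfp930 and Zfp94 likewise shared neither the highest nor the lowest group. A second probe set was untested for Zfp277, Zfp37, Zfp54, Zfp622 and Zfp638, and neither was tested for Zfp30 and Zfp503. Zfp62, Zfp185 and Zfp101 have a single probe set each, so none of the 3 calls could be set against another probe set of its gene.

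**Figure D5:**
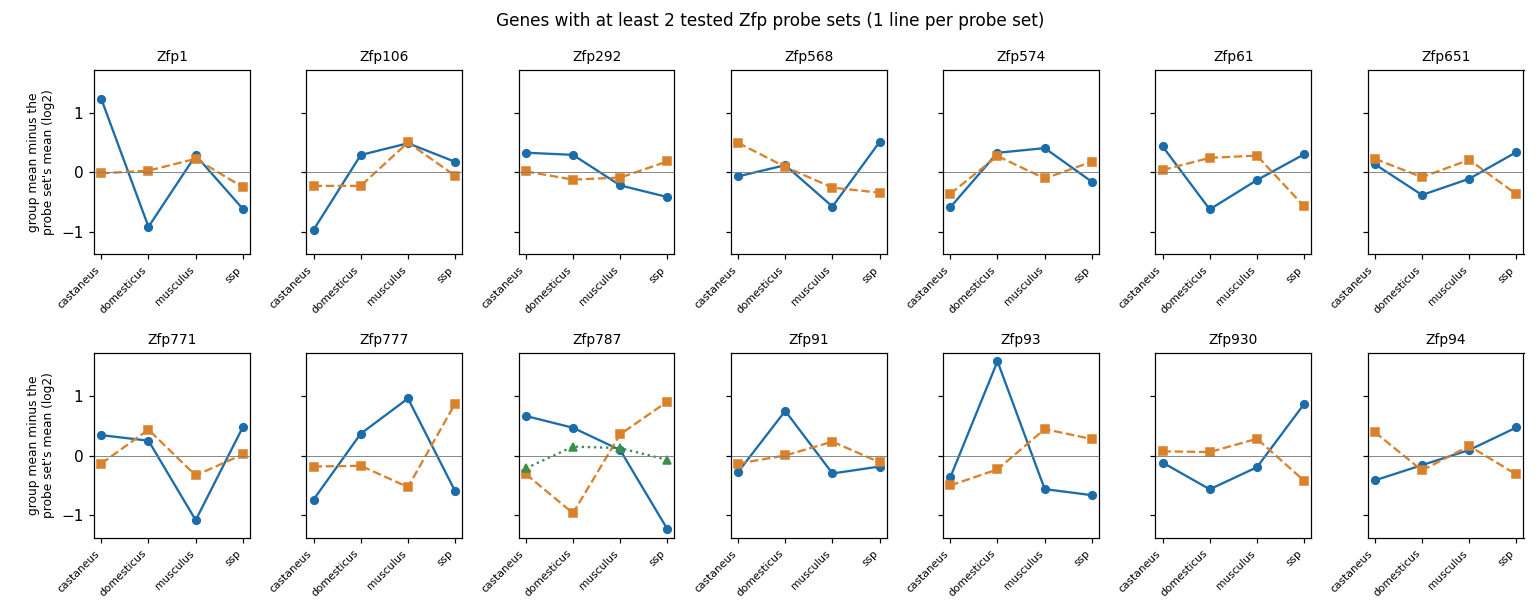
Group means (log2), each minus the mean of its probe set, for the 14 genes with at least 2 tested Zfp probe sets. Each line and symbol is 1 probe set, and the lines only join the values of the 4 groups. The lines of Zfp106 share a peak in musculus and a low in castaneus, while those of Zfp777 and Zfp787 cross.

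Zfp genes sit close together on a few chromosomes. Of the 87 genes, 19 (21.8%) are on chromosome 7 and 15 (17.2%) on chromosome 17, against 7.94% and 5.29% of all genes on the array. A further 10 are on chromosome 8 and 8 on chromosome 6. Counting neighbours with at most 3 protein-coding genes between them, 30 of the 87 genes lie in 12 runs. The longest is Zfp398, Zfp282, Zfp777, Zfp746 and Zfp467 on chromosome 6.

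No gene in any run was called, where 1.76% of all tested probe sets on the array were. The chromosome 17 run of Zfp54, Zfp51 and Zfp53 was highest in ssp, domesticus and castaneus in turn. Zfp326 and Zfp644, neighbours on chromosome 5, were both highest in domesticus and lowest in musculus, with spans of 2.02 and 1.89-fold that did not pass (limma, adjusted p = 0.485 and 0.507). The 23 tested probe sets of chromosome 7 had a median span of 0.95 log2 and 0 calls, and the 10 of chromosome 17 a median of 1.03 log2 and 1 call, Zfp101.

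Of the genes that encode partners of KRAB zinc finger proteins, 1 differed among the groups. From 24 listed for the co-repressor complex, 15 were measured and 14 tested (7.14% called against 1.76% of all tested, median span 0.63 log2). Trim28, the scaffold that binds the KRAB domain, read 17122 to 19986 on the 8 arrays and spanned 0.09 log2 (limma, adjusted p = 0.99). Setdb1, which lays down the repressive histone H3 mark, spanned 0.99 log2 (adjusted p = 0.501). The 1 call was Rbbp4, a histone-binding subunit shared by several chromatin complexes. It read 1248 and 1546 in domesticus and 263 and 281 in castaneus, with 350 to 662 on the other 4 arrays. This was a 5.11-fold span (adjusted p = 0.0446).

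C2H2 factors that carry other names gave no calls by limma, where 1.76% of all tested probe sets passed. Of 74 listed, 53 were measured and 42 tested, with a median span of 0.8 log2, against 0.96 for the Zfp probe sets. Ctcf, the insulator protein, spanned 1.48 log2, Yy1 0.36 log2 and Zscan21, formerly Zfp38, 0.4 log2 (adjusted p = 0.526, 0.859 and 0.796). Where several probe sets measured a listed gene, the brightest tested one stood for it. The 0.96 covers all 86 tested Zfp probe sets, also dimmer second ones, so the medians were not taken alike.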

How the data were processed

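Testis RNA of 4 groups was measured on 2 technical replicate arrays each, per the labels. The authors deposited an intensity for each probe set on each array, on a linear scale. Trimmed means (2% at each end) were 496 to 497 on all arrays, so the arrays had been scaled. The summary method and its version are not named in the labels or files used here. Symbols came from the platform annotation (10833 probe sets with 1 symbol, 396 with several, 1193 with none).

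Before log2, values under the 10th percentile, 18.7, were raised to it, which touched 7.39% to 13.1% of an array. The 8874 probe sets at or above their array's 40th percentile on at least 2 arrays were fitted with limma 3.58.1 in R 4.3.3, with 1 mean per group over all 8 arrays (4 residual and 2.34 prior degrees of freedom). P-values were adjusted by Benjamini-Hochberg over all of them. A call needed an adjusted p under 0.05 and at least 1 log2, by the F test or within a pair. The fit was tested on simulated data. The number of arrays limits the precision.

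Values were named for called probe sets, the 12 widest spans without overlap between highest and lowest group, the 3 narrowest, genes with several probe sets, listed germ cell genes and Zfp36. Other genes were named after their values were seen. Members and lists were chosen with earlier results of these data known. Alternatives were other floors, filters, scalings, variance priors, a replicate block, pair-only fits and leaving out arrays.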

Additional observations from a re-analysis of the deposited data

How the results depend on the processing

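The call of Zfp62 over the 4 groups held under all 8 settings that kept every array and in 6 of 8 fits with 1 array left out. The median span of the tested Zfp probe sets stayed between 0.74 and 1.18 log2 under every setting, always above that of all probe sets tested. The 3 calls over the 4 groups fell to 1 in each of 3 settings, without the filter, with a 60th percentile filter and with the replicate block. Without 1 array they numbered 0 to 2. The difference between castaneus and musculus gave 1 call with the floor at the 20th percentile, 1 without the filter and 1 with the block. Domesticus and musculus gave 0 with that floor, 0 without the filter, 0 with the filter at the 60th percentile and 2 with a trended and robust prior. Domesticus and ssp gave 1 with that floor, and musculus and ssp 0 with the stricter filter. With the 4 arrays of a pair alone, castaneus and ssp gave 0 and musculus and ssp 0 by limma, where 6 and 11 had an unadjusted p under 0.05. Fewer arrays leave fewer degrees of freedom, and for the other changes the cause was not tested.

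With 1 array left out, the pairs ranged from 0 to 1 for castaneus and domesticus, 0 to 2 for castaneus and musculus, 0 to 1 for castaneus and ssp, 0 to 1 for domesticus and musculus, 0 to 0 for domesticus and ssp and 0 to 1 for musculus and ssp. The count specific to 1 group was 0 to 0 in these fits. Both musculus arrays lay below the rest in 12 probe sets, in 8 with median centring and in 3 of the 37 tested with the filter at the 60th percentile (8.11% against 7.53% of the array), settings chosen after seeing the data. Reversals came only with an array left out, for 4 of 48 named probe sets, none of them called. Their differences ranged from -0.61 (and -0.29) to 1.34 log2 for Zfp787, from -0.38 to 1.47 for Zfp568, from -0.89 to 2.08 for Zfp651 and from -0.13 to 0.74 for Zfp292.

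Deviations of arrays with the same replicate number correlated between groups at 0.03 to 0.17 across all tested probe sets, positive in every pair. Across the Zfp probe sets the correlations ran from -0.09 to 0.23. The spermatogonial marker sums were higher on replicate 1 in every group, although Stra8, Kit, Uchl1 and Gfra1 were not. With 2 replicate numbers these values do not establish pairing. With the replicate block Zfp62 stayed called (adjusted p = 0.0192) and Zfp185 and Zfp101 were each at 0.0659 in limma.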
